A study of Homo sapiens with 6 samples.

Results

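The 9 genes described here encode the vascular endothelial growth factor (VEGF) ligands VEGFA, VEGFB, VEGFC and PGF, the receptor tyrosine kinases FLT1, KDR and FLT4, and the neuropilins NRP1 and NRP2. They were taken by gene symbol from a table of 24789 genes and assembled loci, and all 9 had a row there. RNA was sequenced from LX-2 cells, a human line derived from hepatic stellate cells, which are the pericyte-like cells that lay down scar matrix in injured liver. The tested cells received an siRNA against AEBP1, a gene for a collagen-binding matrix protein, and the cells they were set against received a scrambled siRNA. Each siRNA was used at 50 nM for 48 hours with a lipid transfection reagent, and the labels call the first cells AEBP1 knockdown and the second WT in genotype, with no other agent. There were 3 libraries per group. The labels do not say whether a library stands for its own transfection, so the spread that p-values rest on may be technical.

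VEGF ligands are secreted dimers that bind receptor tyrosine kinases, and they are best known for the growth of blood and lymphatic vessels. VEGFA binds FLT1 and KDR, VEGFB and PGF bind FLT1, and VEGFC binds FLT4 and, after processing, KDR. FLT1 binds VEGFA tightly but signals weakly, and a secreted short form of it acts as a decoy, whereas KDR carries most of the endothelial response. Neuropilins are co-receptors with short cytoplasmic tails that bind VEGF family members and class 3 semaphorins. In liver, stellate cells are one source of VEGFA for the neighbouring sinusoidal endothelium. LX-2 is a mesenchymal line, so receptors that define endothelial cells are read here in a non-endothelial background.

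The level of the targeted gene went against 2 of the 6 labels, which bears on each direction given below. AEBP1 stood at 29.7, 27.7 and 48.3 CPM (counts scaled to the library total) in libraries 1, 2 and 3 of the AEBP1 siRNA label. Libraries 1, 2 and 3 of the scrambled siRNA label had 53.6, 48.7 and 25.1 CPM. Libraries are therefore named by their labels throughout, as in "under the AEBP1 siRNA label". The AEBP1 siRNA label against the scrambled one gave a log2 fold change of -0.27 for AEBP1 (SE 0.305, edgeR adjusted p = 0.991). Without replicate 3 of both groups it was -0.83. That setting leaves out the 2 libraries whose AEBP1 level went against their labels, so its AEBP1 value is no test of the knockdown. Its values for other genes compare libraries chosen by AEBP1. Total counts ranged from 34433510 to 49432960. The library labelled AEBP1 siRNA 1 also stood apart from the other 5 on the first principal component, which held 34.8% of the variance, at -65.9 against 5.74 to 17.3. By chi-square per degree of freedom over genes, the closest libraries were AEBP1 siRNA 2 and scrambled siRNA 3 (8.02). Next came AEBP1 siRNA 3 and scrambled siRNA 2 (9.48), so these pairs crossed the labels. The closest pairs within a label were scrambled siRNA 1 and 2 (14.7) and AEBP1 siRNA 2 and 3 (24.0).

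None of the 9 genes differed between the labelled groups at an adjusted p under 0.05 by the quasi-likelihood test of edgeR, with adjustment over all 16250 genes tested. In that comparison 0.00615% of all genes passed, 1 gene in number, and the adjusted p was 0.991 for each of the 9. DESeq2 and limma-voom also called 0 of the 9. The unadjusted p of edgeR was under 0.05 for 1 of the 9, FLT4, and for 1.33% of all genes. FLT4 had at most 28 counts in a library. It met the filter on low counts mainly through the group where it was higher, so its p was not read as a difference. Estimates were higher under the AEBP1 siRNA label for 4 genes and lower for 5. Their median log2 fold change was -0.033, beside -0.0023 over all genes tested.

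**Figure D1:**
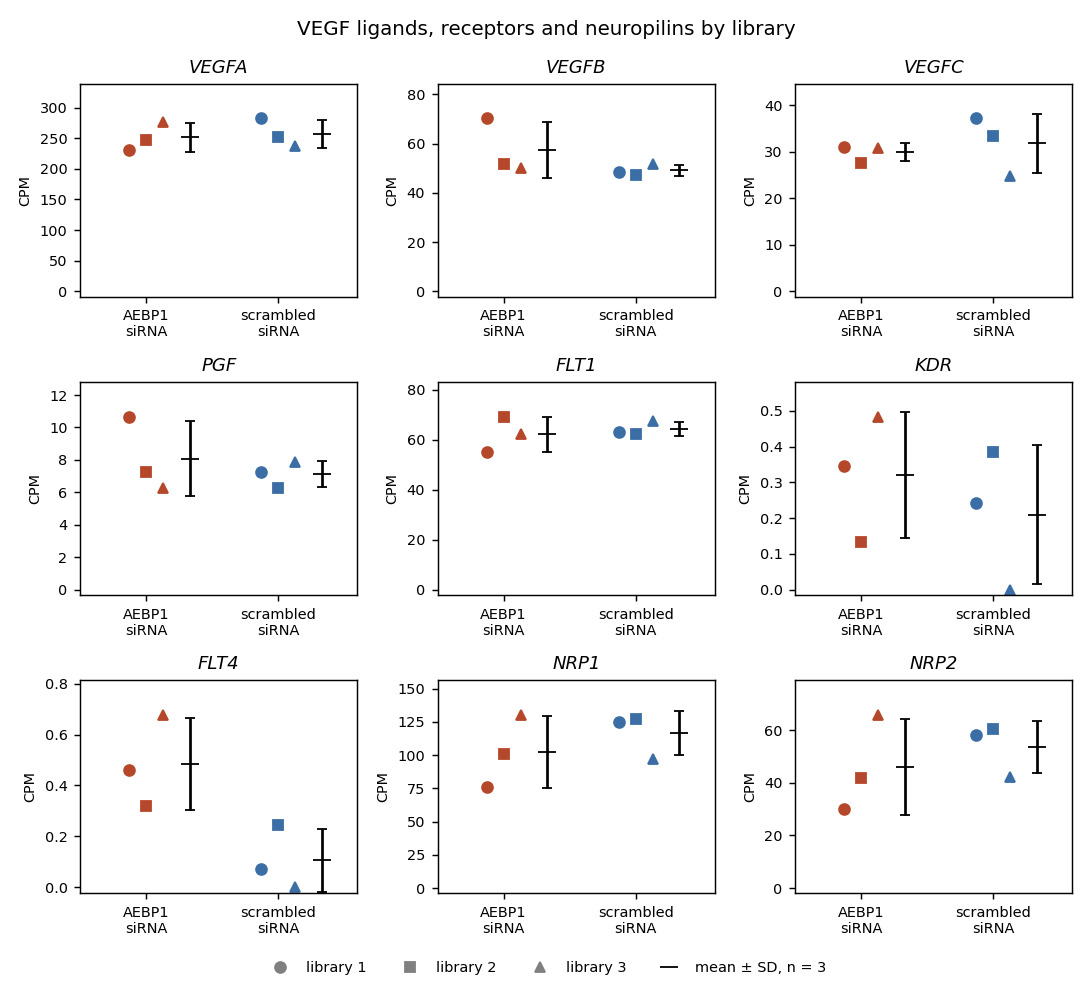
CPM of each gene in the 3 libraries labelled AEBP1 siRNA (left, red) and the 3 labelled scrambled siRNA (right, blue), with the mean and SD of each group (n = 3) in black and a linear axis for each gene. Groups overlapped for 8 of the 9 genes, and FLT4, with at most 0.678 CPM, was the exception. Of all genes tested, 5.93% had groups that did not overlap.

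**Figure D2:**
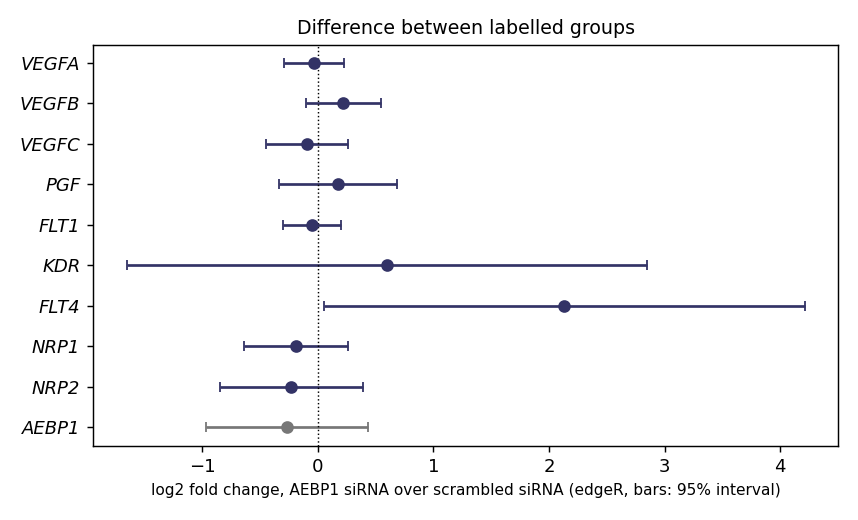
Log2 fold change of the libraries labelled AEBP1 siRNA over those labelled scrambled siRNA, with 95% intervals from edgeR, for the 9 genes and, in grey, AEBP1. Intervals were narrowest for FLT1 and VEGFA, and those of KDR and FLT4 were several log2 units wide.

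Levels between genes were compared in FPKM, the deposited measure per transcript length. By mean over the 6 libraries the order was VEGFA at 67.5 FPKM, VEGFB at 36.8, NRP1 at 17.6, VEGFC at 13.3, FLT1 at 10.0, NRP2 at 7.52, PGF at 3.81, FLT4 at 0.0481 and KDR at 0.0375 FPKM. The level of VEGFA ranked 946 among the 21713 rows with an FPKM above 0, and that of KDR 19016. In this order 3 steps were separate, in that the ranges over 6 libraries did not overlap. The lowest VEGFA value was 61.3 FPKM and the highest VEGFB value 49.5 FPKM. The lowest VEGFB value was 32.2 FPKM, above the highest NRP1 value of 21.6 FPKM. PGF, at 3.15 FPKM or more, lay above FLT4, at 0.0998 FPKM or less. Neighbours from NRP1 down to PGF had overlapping ranges, though VEGFC exceeded FLT1 within each of the 6 libraries, and the level of FLT4 exceeded that of KDR in 3 of them.

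VEGFA, the main angiogenic ligand and a hypoxia target, was the most abundant member. It had 230.0, 248 and 276 CPM in libraries 1, 2 and 3 of the AEBP1 siRNA label, and 282, 251 and 237 CPM in libraries 1, 2 and 3 of the scrambled siRNA label. The groups overlapped, and the lowest and the highest value differed by 1.23-fold. VEGFA averaged 251 CPM ± 23.0 under the AEBP1 siRNA label and 257 CPM ± 23.3 under the scrambled siRNA label (SD, n = 3 each), with a log2 fold change of -0.033 (SE 0.113, edgeR adjusted p = 0.991). The 95% interval of -0.29 to 0.23 corresponds to folds of 0.817 to 1.17, and the estimate was -0.16 without replicate 3 of both groups.

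VEGFB, a ligand of FLT1 linked to lipid handling in heart and muscle, had 70.3, 51.9 and 49.9 CPM under the AEBP1 siRNA label, against 48.5, 47.4 and 51.6 CPM under the scrambled siRNA label. The library labelled AEBP1 siRNA 1 stood above the other 5, which lay close together. The log2 fold change of VEGFB was 0.22, with SE 0.141 and a 95% interval of -0.10 to 0.55 (edgeR adjusted p = 0.991), 0.050 without that library, and 0.35 without replicate 3 of both groups.

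PGF, the placental growth factor that binds FLT1 but not KDR or FLT4, showed the same library on top at a lower level. Its values were 10.7, 7.23 and 6.27 CPM under the AEBP1 siRNA label and 7.23, 6.28 and 7.89 CPM under the scrambled siRNA label. The groups overlapped, and the log2 fold change of 0.17 (SE 0.221, 95% interval -0.33 to 0.68, edgeR adjusted p = 0.991) was -0.079 without the library labelled AEBP1 siRNA 1 and 0.41 without replicate 3 of both groups.

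VEGFC, the lymphangiogenic ligand, had 31.1, 27.6 and 30.9 CPM under the AEBP1 siRNA label and 37.2, 33.4 and 24.9 CPM under the scrambled siRNA label. The highest and the lowest value were both in libraries labelled scrambled siRNA, the lowest in the one that was also lowest in AEBP1. The log2 fold change was -0.091 with SE 0.155 and a 95% interval of -0.45 to 0.27 (edgeR adjusted p = 0.991), 0.036 without scrambled siRNA 1, and -0.27 without replicate 3 of both groups.

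The makeup of the ligand pool was similar in 5 of the 6 libraries. Of the summed FPKM of the 4 ligands, VEGFA made up 47.3%, 56.5% and 58.8% under the AEBP1 siRNA label, against 58.3%, 57.9% and 55.6% under the scrambled siRNA label. VEGFB made up 38.1%, 30.4% and 27.8% under the AEBP1 siRNA label and 26.2%, 27.3% and 31.5% under the scrambled siRNA label, so that the first library was the one with less VEGFA and more VEGFB. The share of VEGFC ranged from 9.42% to 12.7% and that of PGF from 2.59% to 4.16% over all libraries. The log2 ratio of VEGFB to VEGFA in FPKM averaged -0.76 ± 0.402 under the AEBP1 siRNA label and -1.02 ± 0.174 under the scrambled siRNA label (SD, n = 3 each), an exact two-sided permutation p of 0.4, and the difference of 0.26 was 0.52 without replicate 3 of both groups. That of VEGFC to VEGFA averaged -2.37 ± 0.166 under the AEBP1 siRNA label and -2.34 ± 0.195 under the scrambled siRNA label (exact permutation p = 1). After adjustment over the 3 ratios tested, NRP2 to NRP1 included, each p was 1, and 3 libraries against 3 cannot give less than 0.1.

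FLT1 accounted for nearly all receptor transcripts. Of the summed FPKM of the 3 receptors it made up 98.3% to 99.3% under the AEBP1 siRNA label and 99.1% to 100% under the scrambled siRNA label. It had 55.0, 69.2 and 62.1 CPM under the AEBP1 siRNA label, against 63.0, 62.4 and 67.7 CPM under the scrambled siRNA label. The groups overlapped, with the lowest and the highest value both under the AEBP1 siRNA label. The estimate on the log2 scale was -0.051 with SE 0.108 (edgeR adjusted p = 0.991), and its 95% interval of -0.30 to 0.20, or folds of 0.812 to 1.15, was among the narrowest of the 9. Without replicate 3 of both groups the estimate was -0.014.

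KDR, the receptor that carries most VEGFA signalling in endothelium, was near the limit of detection. It had 12, 5 and 20 counts under the AEBP1 siRNA label and 10, 19 and 0 counts under the scrambled siRNA label. A count of 0 at that depth allows a level of up to 0.0688 CPM (3 counts, counting error only). The groups overlapped, and the sums were 37 counts under the AEBP1 siRNA label (95% exact Poisson interval 26.1 to 51.0) and 29 counts under the scrambled siRNA label (19.4 to 41.6). The log2 fold change of 0.60 had a 95% interval of -1.65 to 2.85 (edgeR adjusted p = 0.991), too wide to give a direction. Whether low counts or the spread between libraries made it wide was not tested. The estimate was -0.41 without replicate 3 of both groups. Where KDR had counts, the FPKM of FLT1 was between 141 and 609 times that of KDR within a library.

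FLT4, the VEGFC receptor of lymphatic endothelium, had 16, 12 and 28 counts under the AEBP1 siRNA label and 3, 12 and 0 counts under the scrambled siRNA label. In CPM these were 0.460, 0.319 and 0.678 under the AEBP1 siRNA label against 0.0730, 0.244 and 0 under the scrambled siRNA label, and FLT4 was the only one of the 9 genes whose groups did not overlap. Groups did not overlap for 5.93% of all genes tested, with the AEBP1 siRNA label higher for 3.03% and lower for 2.9%. At least 10 counts were reached in 3 libraries with the AEBP1 siRNA label and 1 with the scrambled siRNA label, so the gene passed the filter on low counts mainly through the group where it was higher. On the log2 scale the estimate was 2.13 with SE 0.904 and a 95% interval of 0.056 to 4.21 (unadjusted p = 0.0453, edgeR adjusted p = 0.991). It was 1.25 without replicate 3 of both groups, the libraries that go against their labels in AEBP1, and 3.66 without scrambled siRNA 2.

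The upstream sequences of FLT1 and KDR are shown because FLT1 made up nearly all receptor transcripts in these cells and KDR was nearly undetected. They are the 250 bases before the RefSeq start of each gene, on the gene's own strand, in GRCh38.p14, while the deposited counts were made on hg19. FLT1 lies on the minus strand at chr13:28495129-28495378 and KDR on the minus strand at chr4:55125596-55125845. Capitals mark the GC box (GGGCGG or its reverse complement CCGCCC), the cyclic AMP response element (TGACGTCA) and the TATA box (TATAAA, gene strand only), none of which overlapped another.
FLT1: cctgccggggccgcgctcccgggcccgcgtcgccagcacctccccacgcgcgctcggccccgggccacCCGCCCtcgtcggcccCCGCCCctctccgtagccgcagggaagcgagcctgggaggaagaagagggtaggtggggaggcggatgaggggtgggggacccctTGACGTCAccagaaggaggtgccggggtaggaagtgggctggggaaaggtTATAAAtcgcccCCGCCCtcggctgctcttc
KDR: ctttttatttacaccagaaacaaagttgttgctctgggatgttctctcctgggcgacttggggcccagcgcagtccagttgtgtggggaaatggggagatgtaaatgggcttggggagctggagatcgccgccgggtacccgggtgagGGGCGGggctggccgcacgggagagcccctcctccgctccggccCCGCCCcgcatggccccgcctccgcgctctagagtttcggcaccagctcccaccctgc
FLT1 held 3 GC boxes, 1 cyclic AMP response element and 1 TATA box, the last from base 31 to base 26 before the start. KDR held 2 GC boxes and neither of the other motifs. Among 35116 upstream windows of the same length, 42.6% held a GC box on either strand, 1.65% the cyclic AMP response element and 6.80% the TATA box on the gene strand. The core of the hypoxia element, ACGTG on either strand, was in neither window and in 18.5% of all. Such matches describe these letters only, and binding was not measured. Of the 9 genes, 6 had an entry in the RefSeq table, namely VEGFB, VEGFC, PGF, FLT1, KDR and NRP2, and each of their windows held at least 2 GC boxes. The share of all windows with at least 2 was not counted. Like that of KDR, the windows of VEGFB, VEGFC, PGF and NRP2 held neither the cyclic AMP response element nor the TATA box. VEGFB and VEGFC averaged 36.8 and 13.3 FPKM, above FLT1 at 10.0 FPKM. Whether these motifs go with level was not tested. The windows of the 6 genes were rich in G and C, from 65.2% for KDR to 82.8% for VEGFB.

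In bulk RNA, a few cells with high levels and many with low ones cannot be told apart. Markers of endothelium were uneven in these cells, with some well counted and others at or near 0. A list of 23 endothelial markers without VEGF receptors was read in the same table, and 12 of them passed the filter on low counts. PECAM1, an adhesion molecule of endothelial junctions, had at most 11 counts in any library, CDH5 (VE-cadherin) at most 5, and VWF, the clotting factor carrier, at most 17. ERG, an endothelial transcription factor, had 2 counts in 1 library and 0 in the others, and SOX17, MMRN1, LYVE1 and CLEC14A had 0 counts in all 6. The markers with the highest levels were EGFL7, a secreted factor, at 25.1 FPKM, FLI1, an ETS transcription factor, at 8.67 FPKM, TIE1, an orphan receptor, at 4.59 FPKM and ESAM, an adhesion molecule, at 2.84 FPKM, and the guidance receptor ROBO4 followed at 1.96 FPKM. The summed level of the list ranged from 40.2 to 52.3 FPKM under the AEBP1 siRNA label and from 42.2 to 48.6 FPKM under the scrambled siRNA label. Of the 12 tested, 6 had higher and 6 lower estimates and 0 passed. Their median log2 fold change was -0.014, but -0.19 without scrambled siRNA 2, -0.12 without AEBP1 siRNA 3 and -0.21 without replicate 3 of both groups.

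**Figure D3:**
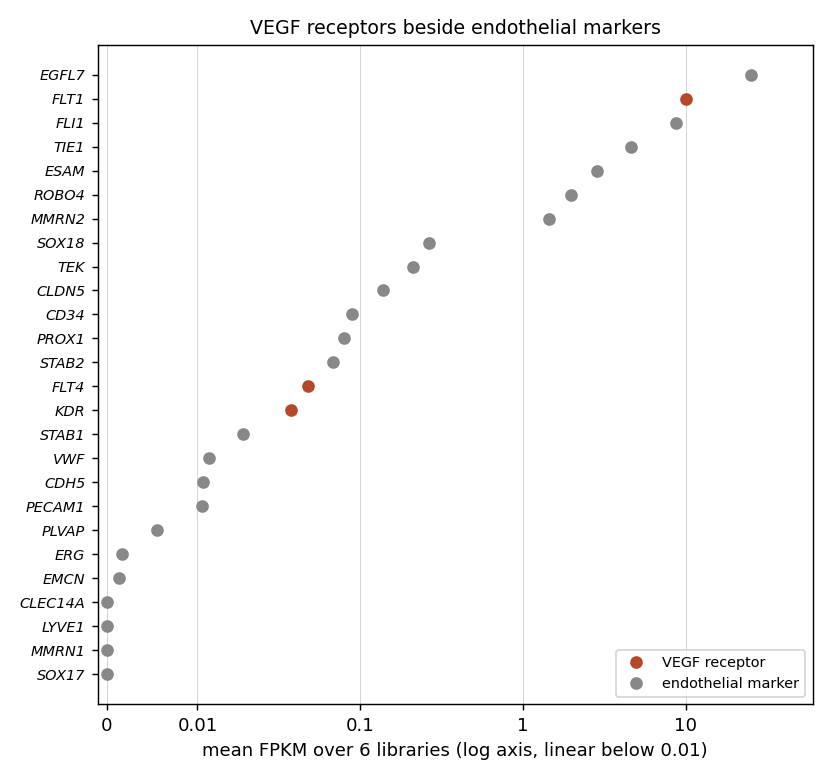
Mean FPKM over the 6 libraries of the 3 VEGF receptors (red) and 23 endothelial markers (grey), on an axis that is logarithmic above 0.01 and linear below. FLT1 at 10.0 FPKM was second to EGFL7, while KDR and FLT4 lay under 0.05 FPKM.

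The most abundant stellate cell and mesenchymal markers stood well above these levels. VIM, the mesenchymal intermediate filament, averaged 552 FPKM over the 6 libraries, COL1A1 201 FPKM, SPARC, a matrix glycoprotein, 143 FPKM, and TAGLN, an actin-binding protein, 135 FPKM. Of 18 such markers 13 were tested and 0 passed. DES, DCN, LUM, GFAP and LRAT did not pass the filter on low counts, and LRAT, which stores retinol in quiescent stellate cells, had 0 counts. The median log2 fold change of the 13 was 0.084, but -0.050 without replicate 3 of both groups, -0.057 without a filter and -0.059 over genes of at least 5 CPM. Of 16 hepatocyte, epithelial and leukocyte markers 5 were tested, led by CD68 at 9.93 FPKM and the keratin KRT7 at 8.18 FPKM. SERPINA1 and CD14 followed at 3.04 and 0.942 FPKM, and the list had 2 higher and 3 lower estimates with a median of -0.026.

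A transcript length is implied by the deposited counts and FPKM of a gene. Counts per library total divided by FPKM gave an implied length of 5921 to 6585 bases for FLT1 over the 6 libraries. That is 0.835 to 0.929 times the longest of the 9 FLT1 coding transcripts in GENCODE release 29, which has 7092 bases. For VEGFA, VEGFB, VEGFC, PGF, NRP1 and NRP2 the same quotient ranged from 0.945 to 1.13, so FLT1 was lowest among the 7 genes with ample counts. The other annotated coding transcripts of FLT1 range from 434 to 6453 bases, 6337 and 2969 bases among them, and no isoform was measured here. Which annotation and library total lie behind the FPKM is not known here. A different annotation would change the quotient gene by gene, so the low place of FLT1 cannot be told apart from that.

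NRP1 and NRP2 varied together over the libraries. NRP1, which binds VEGFA and SEMA3A, had 75.8, 101 and 130.3 CPM in libraries 1, 2 and 3 of the AEBP1 siRNA label, and 125, 127 and 97.2 CPM in libraries 1, 2 and 3 of the scrambled siRNA label. NRP2, which binds VEGFC and SEMA3F, had 30.0, 41.7 and 65.8 CPM under the AEBP1 siRNA label, against 58.2, 60.5 and 42.3 CPM under the scrambled siRNA label. For both genes the library labelled AEBP1 siRNA 1 was lowest and AEBP1 siRNA 3 highest, so that the libraries labelled AEBP1 siRNA spanned those labelled scrambled siRNA. The spread from lowest to highest was 1.72-fold for NRP1 and 2.19-fold for NRP2, with 1.70-fold for PGF next among the 7 well-counted genes. By coefficient of variation NRP2 led at 27.8%, ahead of PGF at 21.5% and NRP1 at 19.8%. The ratio of NRP2 to NRP1 in FPKM was 0.366, 0.412 and 0.482 under the AEBP1 siRNA label and 0.436, 0.420 and 0.413 under the scrambled siRNA label (exact permutation p = 0.8).

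Between the labelled groups, NRP1 averaged 102 CPM ± 27.3 under AEBP1 siRNA and 116 CPM ± 16.7 under scrambled siRNA (SD, n = 3 each), with a log2 fold change of -0.19 (SE 0.197, 95% interval -0.64 to 0.27, edgeR adjusted p = 0.991). NRP2 averaged 45.8 CPM ± 18.2 under AEBP1 siRNA and 53.7 CPM ± 9.92 under scrambled siRNA, with a log2 fold change of -0.23 (SE 0.269, 95% interval -0.85 to 0.39, edgeR adjusted p = 0.991). Both estimates rested on the library labelled AEBP1 siRNA 1, and without it they were -0.011 and 0.0017. Without replicate 3 of both groups they were -0.51 and -0.73. The edgeR adjusted p-values in that setting, which follows the measured AEBP1 level, were 0.967 and 0.772.

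For 3 of the genes the libraries high in AEBP1 were also the high ones. The libraries labelled AEBP1 siRNA 3 and scrambled siRNA 1 and 2 held the 3 highest values of AEBP1, and the same 3 held the highest values of NRP1, NRP2 and VEGFA. That was so for 3 of the 9 genes and for 9.80% of all genes tested. No test was made of all libraries sorted in this way, since AEBP1 is itself a measured value. The fits without replicate 3 of both groups come close to such a sort, as they leave out the libraries that go against their labels in AEBP1. The same libraries scored 17.8, 30.0 and 14.3 on the second principal component, which held 21.4% of the variance, and the others from -34.1 to -1.99.

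**Figure D4:**
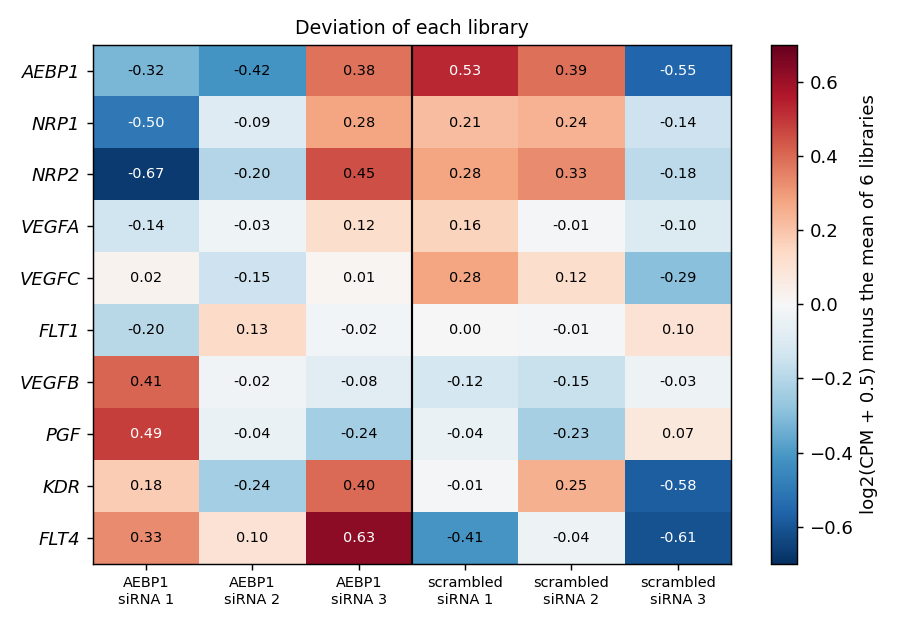
Deviation of each library, as log2(CPM + 0.5) minus the mean of the 6 libraries, for AEBP1 and the 9 genes, with the 3 libraries labelled AEBP1 siRNA left of the line. NRP1 and NRP2 were lowest in AEBP1 siRNA 1, at -0.50 and -0.67, where VEGFB and PGF were highest, at 0.41 and 0.49.

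In the library labelled AEBP1 siRNA 1 the deviations of the well-counted members ran with transcript length. VEGFB and PGF, with implied lengths of 1455 and 1990 bases, lay 0.41 and 0.49 above the mean of the 6 libraries on the log2 scale. VEGFC and VEGFA, at 2323 and 3777 bases, lay at 0.023 and -0.14. FLT1, NRP1 and NRP2, at 6324, 6256 and 6582 bases, lay at -0.20, -0.50 and -0.67.

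The same held for the transcriptome at large. In that library the median deviation was 0.29 over 2182 genes under 2 kb, 0.095 over 4340 genes of 2 to 4 kb, -0.11 over 2679 genes of 4 to 6 kb and -0.36 over 2393 genes of 6 kb or more, each gene having a mean of 5 CPM or more. In the other 5 libraries these medians stayed between -0.12 and 0.12. The part of transcript length in the values of the 9 genes was not tested. This view was chosen after the values were seen.

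**Figure D5:**
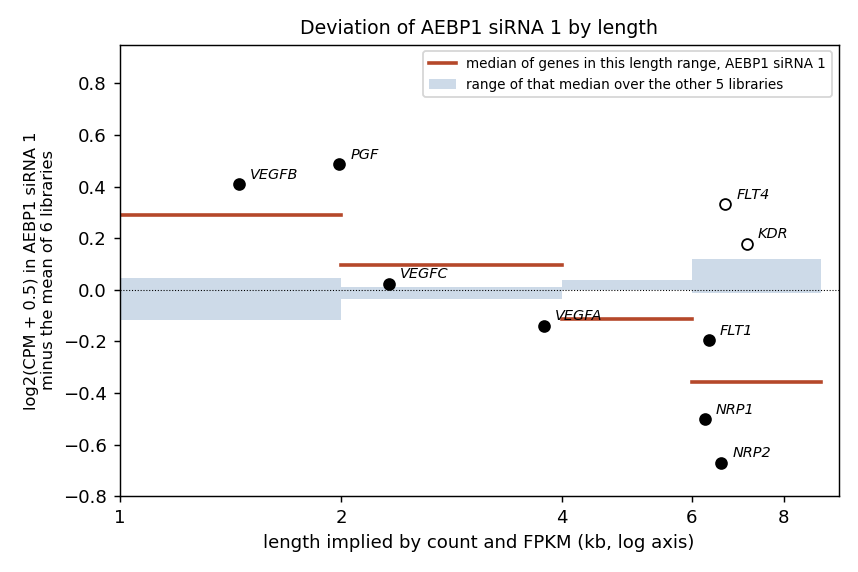
Deviation in the library labelled AEBP1 siRNA 1 against the length implied by count and FPKM for the 9 genes (points, open for KDR and FLT4 with few counts), over the median of all genes averaging 5 CPM or more in each length range (red lines) and the range of that median in the other 5 libraries (blue bands). Short members lay above 0 and long, well-counted ones below it.

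Genes whose pattern over the 6 libraries was most like that of a member were listed by Pearson r of log2 CPM among 11055 genes averaging 5 CPM or more, as a description. For VEGFA these were TNFSF4, a costimulatory ligand (r = 0.992), CAMTA1, a calmodulin-binding transcription factor (0.988), and RRP8, a nucleolar methyltransferase (0.985). For FLT1 they were IPO8, a nuclear import factor (0.996), TBCEL, a tubulin-binding protein (0.996), and NAA15, a subunit of an N-terminal acetyltransferase (0.995). For NRP1 they were CDC27 of the anaphase-promoting complex (0.998), COL6A3, a collagen VI chain (0.997), and QTRT2, of the enzyme that places queuine in tRNA (0.997), and NRP2 reached 0.993. Of the 11055 genes, 26 had an r above 0.95 with VEGFA, 290 with FLT1 and 252 with NRP1, and all points share the library effects given above.

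Partners of the neuropilins ranged from abundant to barely detected. Of 13 class 3 semaphorins, plexins and an adaptor, 12 were tested, with 5 higher and 7 lower estimates, 0 called and a median log2 fold change of -0.025. GIPC1, the adaptor of the neuropilin tail, was the most abundant at 90.4 FPKM, with 244, 175 and 181 CPM under the AEBP1 siRNA label and 179, 165 and 174 CPM under the scrambled siRNA label (log2 fold change 0.21, 95% interval -0.10 to 0.53). The library labelled AEBP1 siRNA 1 stood above the other 5. SEMA3C, a secreted semaphorin, was at 18.1 FPKM, and the plexin co-receptors PLXNA1 and PLXNA3 at 12.0 and 7.36 FPKM. PLXND1 and PLXNA2 followed at 5.84 and 4.07 FPKM, then SEMA3B at 1.63 and SEMA3F, the semaphorin bound by NRP2, at 1.03 FPKM. The remaining members of the list were scarce. SEMA3D was at 0.659 FPKM, SEMA3A, the semaphorin bound by NRP1, at 0.501 and SEMA3E at 0.109 FPKM. PLXNA4 was at 0.0137 FPKM and the untested SEMA3G at 0.0056 FPKM. VEGFD, the ligand closest to VEGFC, had 10 counts in the library labelled scrambled siRNA 3 and 0 in the other 5.

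Enzymes and cofactors that mature VEGFC differed widely in level. FURIN and PCSK7, proprotein convertases, were at 25.6 and 22.9 FPKM, CCBE1, the secreted cofactor of VEGFC cleavage, at 11.4 FPKM, and ADAMTS2, a matrix protease, at 3.80 FPKM. ADAMTS3, the protease that acts with CCBE1 on VEGFC, was at 0.287 FPKM, its relative ADAMTS14 at 0.275 FPKM and the convertase PCSK5 at 0.221 FPKM. CCBE1 had 79.2 CPM ± 5.00 under the AEBP1 siRNA label and 82.5 CPM ± 4.53 under the scrambled siRNA label, a log2 fold change of -0.059. These genes belong to a list of 10, other VEGF ligands and processing enzymes, which also held VEGFD, HPSE and MMP9. HPSE and MMP9 were at 3.46 and 1.49 FPKM, with log2 fold changes of -0.21 and -0.36. Of the 9 tested, VEGFD being the other, 4 had higher and 5 lower estimates and 0 passed, with a median of -0.059. These counts and the median are therefore not of VEGFC maturation alone.

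Genes that act below VEGF receptors showed no call. Of 30 listed 28 were tested, with 13 higher and 15 lower estimates, a median of -0.011 and 0 called. PLCG1, the phospholipase that KDR recruits, had 372 CPM ± 24.1 under the AEBP1 siRNA label and 376 CPM ± 22.5 under the scrambled siRNA label. HSPB1, a small heat shock protein phosphorylated downstream, RAC1, a GTPase of cell motility, and the phosphatase PTPN11 averaged 81.5, 78.0 and 51.6 FPKM, with log2 fold changes of 0.22, 0.16 and -0.16. In the library labelled AEBP1 siRNA 1, HSPB1 and RAC1 had their highest and PTPN11 its lowest CPM of the 6.

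Genes that control VEGFA transcription or answer to hypoxia varied widely in level. HIF1A and EPAS1, the oxygen-regulated subunits of hypoxia-inducible factors, averaged 165 and 103 FPKM. HIF1A had 564, 764 and 761 CPM under the AEBP1 siRNA label and 763, 759 and 744 CPM under the scrambled siRNA label (log2 fold change -0.12, 95% interval -0.42 to 0.18). The library labelled AEBP1 siRNA 1 was the low one, and the other 5 lay close together. ARNT, the partner of both factors, was at 8.30 FPKM. The hydroxylases that curb them were at 36.6 FPKM for EGLN2, 7.71 for HIF1AN, 7.02 for EGLN1 and 0.0353 FPKM for EGLN3, which was not tested. The glycolytic targets LDHA and PGK1 had log2 fold changes of 0.0059 and -0.036, and CA9, a carbonic anhydrase induced by hypoxia, had 0 counts in all libraries. Of 24 genes of this list 22 were tested, with 8 higher and 14 lower estimates, 0 called and a median of -0.027.

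Angiogenic factors outside the family included some with levels above VEGFA. CXCL8, an angiogenic chemokine, averaged 290.3 FPKM, CCN1, a matricellular protein, 157 FPKM, FGF2 45.3 FPKM and CCN2 32.4 FPKM. CCN1 had 432 CPM ± 90.9 under the AEBP1 siRNA label and 375 CPM ± 67.0 under the scrambled siRNA label (log2 fold change 0.21, 95% interval -0.21 to 0.62). CXCL8 had 552 CPM ± 37.3 under the AEBP1 siRNA label and 549 CPM ± 113 under the scrambled siRNA label, a log2 fold change of 0.0075. Of 28 listed 24 were tested, with 9 higher and 15 lower estimates, 0 called and a median of -0.032. Over all 8 lists, 125 of 162 entries were tested and 0 had an unadjusted edgeR p under 0.05, the smallest being 0.0972. Only 1.33% of all genes tested had such a p, so a count of 0 does not set these lists apart.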

How the data were processed

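RNA was measured by sequencing in 6 LX-2 libraries. The authors deposited raw counts and FPKM per gene, per the file headers, and the submitters' processing notes name hg19 as the build. Aligner, counter, annotation, strand setting and handling of PCR copies were not given in the sources used here. GENCODE release 29 lists an opposite-strand gene over 5 of the 9 genes (VEGFA, VEGFC, KDR, NRP1 and NRP2), whose reads could not be told apart without strand. The table also held 17 lines without values, which were left out, and 27 symbols turned into dates were restored by gene ID.

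Deposited counts were filtered with filterByExpr, scaled by trimmed mean of M values and tested by quasi-likelihood in edgeR 4.0.16 (R 4.3.3), on a model of group alone, with Benjamini-Hochberg adjustment over 16250 genes. Standard errors were taken as the log2 fold change over the root of its F value. Single ratios were compared by exact permutation tests over libraries, and FLT1 to KDR was not tested because KDR had 0 counts in a library. DESeq2 1.42.0 and limma 3.58.1 served as alternatives.

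The members and the gene lists were chosen with earlier results of these data known. Named were the 9 genes, AEBP1, in each list the 4 genes with the highest mean FPKM, and the 3 genes most like the leading member of each role; other genes named here were picked with their values known. Same-numbered libraries were not treated as pairs. No library was a copy of another: over genes with 20 counts or more in a pair, chi-square per degree of freedom was 8.02 or higher, so all 6 were kept. Poisson intervals and count floors cover counting error only.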

Additional observations from a re-analysis of the deposited data

How the results depend on the processing

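No member was called under any of the 16 other settings run or at an adjusted p under 0.01, and the smallest adjusted p of a member was 0.772, for NRP2 without replicate 3 of both groups. Against 1 gene called in all, the replicate block gave 2 genes, no filter beyond a nonzero total 3, DESeq2 6, limma-voom 2, limma on log2(FPKM + 0.1) 3 and an adjusted p under 0.01 gave 0. Leaving out single libraries gave 0 to 2. The replicate numbers were not taken as pairs. Deviations of same-numbered libraries from their group means correlated at 0.0961, -0.0078 and -0.10. Both libraries of replicate 3 went against their labels in AEBP1, so these values cannot show whether libraries were paired. The replicate block changed no call among members.

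Without single libraries, log2 fold changes ran from -0.57 to -0.066 for AEBP1, -0.11 to 0.041 for VEGFA, 0.050 to 0.31 for VEGFB, -0.24 to 0.036 for VEGFC, -0.079 to 0.33 for PGF, -0.14 to 0.029 for FLT1, 0.026 to 1.40 for KDR, 1.58 to 3.66 for FLT4, -0.40 to -0.011 for NRP1 and -0.58 to 0.0017 for NRP2. Differences of log2 ratios ran from 0.034 to 0.42 for VEGFB to VEGFA, -0.14 to 0.038 for VEGFC to VEGFA and -0.12 to 0.076 for NRP2 to NRP1. VEGFA was at 0.027 without AEBP1 siRNA 1, and KDR at -0.41 without replicate 3 of both groups. The cause of these reversals was not tested. Of 142 values for members under alternatives, 135 kept their direction. Of the list medians, 113 values under alternatives stayed within the spread between libraries and 15 moved. Without replicate 3 of both groups those that moved were -0.14 for other VEGF ligands and processing enzymes and -0.085 for other angiogenic factors. Markers that moved in that setting were at -0.21 for endothelial, -0.050 for stellate and -0.27 for hepatocyte, epithelial and leukocyte markers. Without AEBP1 siRNA 1, medians were 0.016 for receptor signalling, 0.014 for VEGFA control and 0.017 for other angiogenic factors. A mean of at least 5 CPM left KDR and FLT4 untested. The order of levels had 3 separate steps also with FPKM rescaled to a common sum. Low counts limit KDR and FLT4, with at most 28 counts in a library, as may their spread between libraries.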
